A study of Homo sapiens with 6 samples.

Results

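A set of 10 genes on the long arm of chromosome 17 was followed through lists of N-Myc and JMJD6 binding regions. The lists come from CHP-134, a line derived from a human neuroblastoma that the labels describe as overexpressing N-Myc. The genes were *IGF2BP1*, *PHB*, *NME1*, *NME2*, *PPM1D*, *MXRA7*, *JMJD6*, *METTL23*, *SRSF2* and *BIRC5*, out of 19222 autosomal protein-coding genes of the annotation. A gene counted as listed when a promoter, typical enhancer or super-enhancer region carried its symbol, and its peaks were the common peaks that overlapped those regions. The study compared 2 groups of 3 chromatin immunoprecipitation sequencing (ChIP-seq) replicates, 1 group per antibody. Cells for the N-Myc antibody were cross-linked with formaldehyde alone, and cells for the JMJD6 antibody with disuccinimidyl glutarate and then formaldehyde, so that antibody and cross-linking cannot be told apart. No treatment was given, and all samples came from the same cell line.

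The lists hold regions with a peak in all 3 replicates of a protein and give no height, score or read count. Depth behind a peak is therefore unknown, the spread between replicates was not computed, and a gene without a region may still carry a peak in some replicates. Neither the number of copies of 17q nor the expression of any gene is measured in these lists, so the labelled cell type was not checked against its markers. The authors describe the line as carrying a gain of 17q that includes *JMJD6*, and as *MYCN*-amplified. Confidence intervals (CI) are exact binomial intervals at 95% over genes or peaks and cover counting error only. Positions are 1-based on GRCh37.

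Gain of 17q is the most frequent chromosome imbalance of high-risk neuroblastoma, and many genes of the arm have been examined as drivers of the growth advantage it gives. N-Myc, the product of *MYCN*, binds DNA with its partner MAX, preferentially at the palindrome CACGTG, the canonical E-box. JMJD6 is a jumonji domain oxygenase encoded on 17q itself, which modifies lysines of splicing factors and has been reported to act on histone arginines.

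N-Myc was listed at most of the 10 genes and JMJD6 at *PHB* only. At least 1 region named 7 of the 10 genes, and 3 genes, *JMJD6*, *METTL23* and *SRSF2*, had none in any list. Over all autosomal protein-coding genes, 38.5% were named by at least 1 region, and in the segment of 17q that holds the 10 genes 57.7%. Promoters of *IGF2BP1*, *PHB*, *NME1*, *NME2*, *MXRA7* and *BIRC5* were listed for N-Myc, which is 6 of 10 genes, or 60% (95% CI 26.2 to 87.8%). Among all autosomal protein-coding genes the share was 18.3% (3525 of 19222). Counted instead by a peak within 1 kb of any annotated start site, the same number of the 10 genes had one for N-Myc, 6, and 1 for JMJD6, against 21.5% and 0.812% of all genes. Within 5 kb the counts were again 6 and 1, against 26.5% and 1.07%. With only peaks of at least the median width they were 4 and 1, against 9.7% and 0.432%. Typical enhancers listed for N-Myc named *IGF2BP1*, *PHB*, *NME2*, *PPM1D*, *MXRA7* and *BIRC5*, again 6 of 10, against 32.7% of all genes. For JMJD6, 1 of 10 genes had a listed promoter (10%, 95% CI 0.253 to 44.5%) against 0.655% of all genes. That gene was *PHB*, which also had the 1 JMJD6 enhancer among the 10 genes, against 0.942% of all genes. *PHB* was likewise the gene listed for both proteins, a status held by 0.312% of all genes at promoters and by 0.65% at typical enhancers. No super-enhancer in these lists named any of the 10 genes (upper 95% limit 30.8%). Of all genes, 1.36% were named by an N-Myc super-enhancer and 0.078% by a JMJD6 super-enhancer. The genes were picked with earlier results of these data known, and the shares are descriptions.

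**Figure D1:**
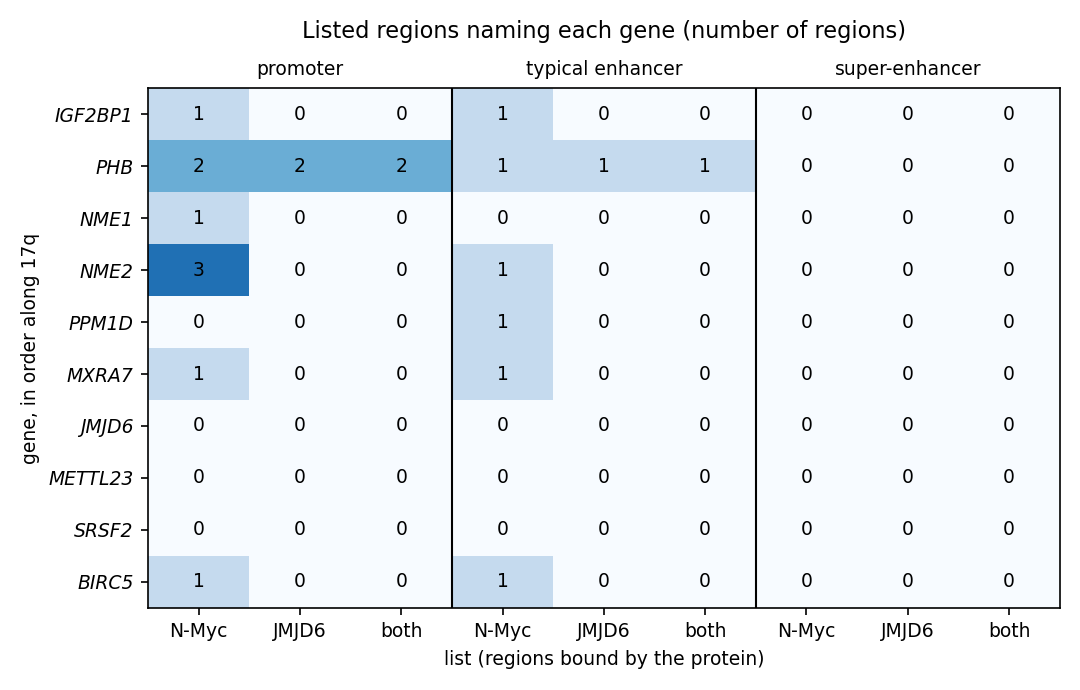
Number of listed regions that name each gene (vertical axis, in order along 17q) in each list (horizontal axis: promoters, typical enhancers and super-enhancers of N-Myc, JMJD6 and both proteins). *PHB* is the only gene with entries in JMJD6 columns, *NME2* has the most N-Myc promoters with 3, and the *JMJD6*, *METTL23* and *SRSF2* lines are 0 throughout.

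The regions held 11 N-Myc peaks and 1 JMJD6 peak. The E-boxes below carry most of the sequence detail of the following paragraphs and are shown to let each peak be read beside its motif. Each line gives 30 bases of GRCh37, 5′ to 3′ on the strand of the gene, with the 6 bases of the motif in capitals.
IGF2BP1, start-site peak (chr17:47074699-47074728, plus strand): gggggctgtcacCACGTGgcttctcctttt
PHB, peak shared with JMJD6 (chr17:47492481-47492510, minus strand): gtacaggataggCACGTGcatttagcccca
NME1, first site (chr17:49230942-49230971, plus strand): agtgctgcgaacCACGTGggtcccgggcgc
NME1, second site (chr17:49231191-49231220, plus strand): cacgtcccacgcCACGTGgactcgcctttg
PPM1D enhancer, first site (chr17:58754771-58754800, plus strand): agctgccatgtcCACGTGctccgagcttgg
PPM1D enhancer, second site (chr17:58754859-58754888, plus strand): acctgaaacgctCACGTGagcgggacagga
MXRA7, start-site peak, variant motif (chr17:74705412-74705441, minus strand): gcttccagacctCACGCGgtgatggtggag
BIRC5, promoter peak, variant motif (chr17:76210116-76210145, plus strand): gcacccggcctgCACGCGttctttgaaagc

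*PHB* encodes prohibitin, a scaffold protein of the inner mitochondrial membrane that assembles with PHB2. The gene (ENSG00000167085, annotated as *PHB1*) lies on chromosome 17 from 47481411 to 47492267 on the minus strand. Its 2 listed promoters are centred on start sites at 47492220 and 47492267, and both were listed for N-Myc, for JMJD6 and for both proteins. A single interval from 47492100 to 47492695 was the peak of both proteins, with identical ends in the 2 lists. It was 596 bp wide and covered the start site, with its centre at −130.5 bp (negative values are upstream, and decimals mark a centre between neighbouring bases). Of 3550 N-Myc peaks in listed promoters 73.0% were narrower, and of 124 JMJD6 peaks in listed JMJD6 promoters 55.6% were narrower. Both shares use this same interval, and whether its ends were set separately for each protein was not checked. The overlapping typical enhancer ran from 47491861 to 47492886 (1026 bp) and named *PHB* at −131 bp and *NGFR*, the low-affinity nerve growth factor receptor, at −80282 bp. The peak held 1 canonical E-box, at −228.5 bp from the 5′ end. The 300 bases upstream of the *PHB* start that lie inside the shared peak, outside any annotated untranslated region, are shown because they hold the one place of the 10 genes where both proteins were listed (chr17:47492268-47492567, minus strand, E-box in capitals).
PHB upstream: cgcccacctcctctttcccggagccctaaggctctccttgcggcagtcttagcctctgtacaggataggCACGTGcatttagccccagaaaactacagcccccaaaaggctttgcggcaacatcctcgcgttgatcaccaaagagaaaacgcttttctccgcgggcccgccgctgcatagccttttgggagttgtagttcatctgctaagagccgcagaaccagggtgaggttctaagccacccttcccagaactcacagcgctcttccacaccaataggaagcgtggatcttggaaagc

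*IGF2BP1*, a fetal RNA-binding protein that stabilises target mRNAs, had a pair of N-Myc peaks before and over its start. The gene (ENSG00000159217) runs from 47074747 to 47133507 on the plus strand. The peak at the start, 47074190 to 47074861, was 672 bp wide and was wider than 81.1% of promoter peaks. Its canonical E-box lay at −33.5 bp from the 5′ end. The second peak, 47072266 to 47073201, was wider at 936 bp (94.2% of promoter peaks narrower) and lay in an exon of a long non-coding RNA gene, ENSG00000250838, with its centre at −2013.5 bp. It held 2 canonical E-boxes, at −2045.5 and −1739.5 bp. A typical enhancer from 47072351 to 47078181 (5831 bp) joined both peaks and named *IGF2BP1* at +492 bp. The nearest JMJD6 peak was the one at *PHB*, 417.4 kb away.

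*NME1* and *NME2* encode neighbouring nucleoside diphosphate kinases, which balance the pools of nucleoside triphosphates, and their N-Myc peaks were unlike each other. At *NME1* (ENSG00000239672, 49230920 to 49239789, plus strand) the peak from 49230475 to 49231627 covered the start site. With 1153 bp it was the widest of the 11 peaks, and 98.1% of promoter peaks were narrower. It held 2 canonical E-boxes, at 36.5 and 285.5 bp into the gene. At *NME2* (ENSG00000243678, 49242796 to 49249105, plus strand) the peak from 49244189 to 49244532 was 344 bp wide, and 25.1% of promoter peaks were narrower. It lay in an exon, after the 3 listed start sites at 49243632, 49243861 and 49244082, and covered none of them. It held no canonical E-box, and its G+C content of 66.9% exceeded that of 96.3% of promoter peaks, against 52.6% G+C for the *NME1* peak. A canonical E-box nevertheless lay 62 bp outside the edge of the *NME2* peak. Of 2241 N-Myc promoter peaks without a canonical E-box, 3.35% had one within 100 bp of an edge. The site is shown for comparison with those inside peaks.
NME2, outside the peak (chr17:49244110-49244139, plus strand): accggcggcgccCACGTGgcctccgcgggc
A typical enhancer of 15121 bp, from 49229945 to 49245065, spanned both peaks and named *NME2* at +6554 bp and the read-through gene *NME1-NME2* at −6420 bp. *NME1* itself was named by a promoter only. Symbols had to match exactly, so a region that named the read-through gene alone was not counted for *NME1* or *NME2*. The nearest JMJD6 peak was 1738.2 kb from *NME1* and 1750.1 kb from *NME2*, where 43.1% and 43.3% of all autosomal protein-coding genes had one closer.

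**Figure D2:**
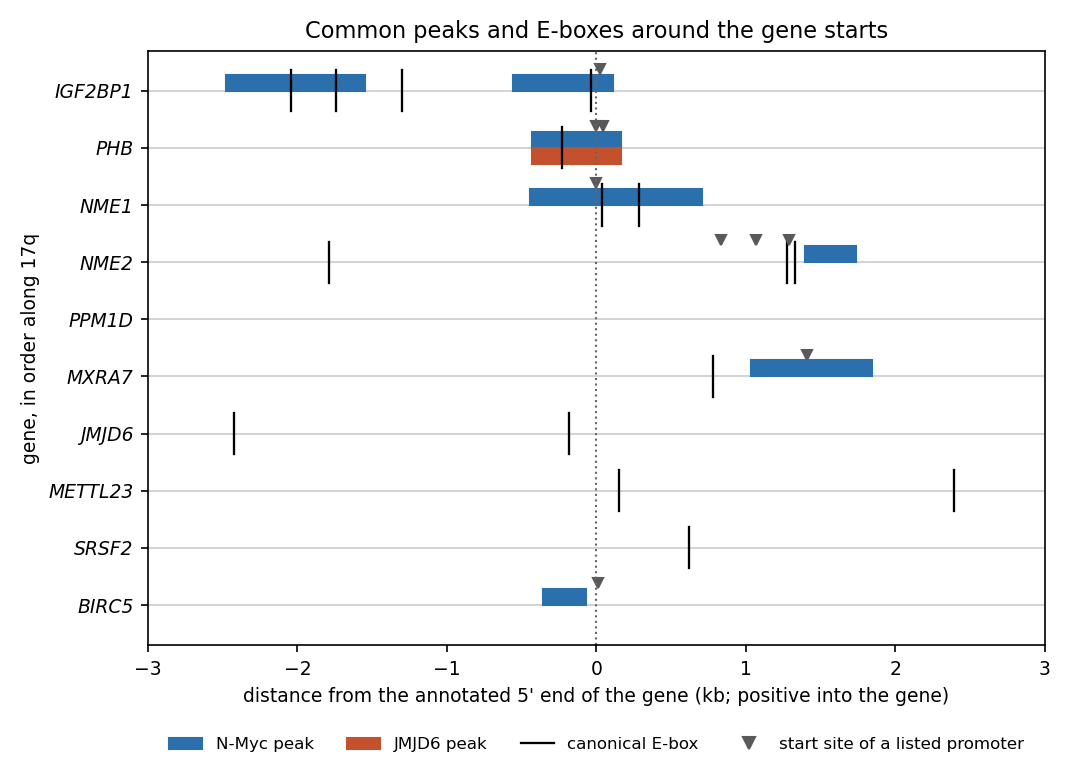
Common N-Myc peaks (blue), JMJD6 peaks (orange), canonical E-boxes (vertical ticks) and start sites of listed promoters (triangles) within 3 kb of the annotated 5′ end of each gene (horizontal axis, kb, positive into the gene). Peaks cover the 5′ end at *IGF2BP1*, *PHB* and *NME1*, lie inside the gene at *NME2* and *MXRA7* and before it at *BIRC5*, while *PPM1D*, *JMJD6*, *METTL23* and *SRSF2* show none.

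*BIRC5* encodes survivin, an inhibitor of apoptosis that also serves in the chromosomal passenger complex at mitosis. The gene (ENSG00000089685) runs from 76210267 to 76221717 on the plus strand. Its promoter peak, 76209910 to 76210195, was the narrowest of the 11 at 286 bp, and 11.1% of promoter peaks were narrower. It ended 72 bp before the 5′ end of the gene and covered no listed start site. It held no CACGTG and 1 CACGCG, a variant E-box, shown above. The typical enhancer assigned to *BIRC5* lay away from the gene, from 76182851 to 76194583 (11733 bp), at −21550 bp from *BIRC5* and +5274 bp from *AFMID*. Its peaks were 430 bp (76183261 to 76183690) and 540 bp (76193178 to 76193717) wide, and both lay in *AFMID* at their centres, in a coding exon and in an untranslated region. The first also covered the 5′ end of *TK1*, which encodes thymidine kinase. Neither held the canonical motif, that variant, or the other variant searched, CATGTG.

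*PPM1D*, which encodes the phosphatase WIP1 that dampens p53 signalling after DNA damage, had no listed promoter. The gene (ENSG00000170836) runs from 58677554 to 58743641 on the plus strand, and the nearest N-Myc peak lay 77.0 kb from its 5′ end and 44714 bp from its closest annotated start site. Of all autosomal protein-coding genes, 57.4% had an N-Myc peak closer to the 5′ end. The typical enhancer that named it, 58754359 to 58755547 (1189 bp), lay −297 bp from *BCAS3* and +77409 bp from *PPM1D*. Its 675-bp peak, 58754586 to 58755260, covered annotated start sites of *BCAS3*, the next gene, and held the 2 canonical E-boxes shown above. The entry for *PPM1D* therefore rests on the nearest-gene assignment of a peak at another promoter.

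**Figure D3:**
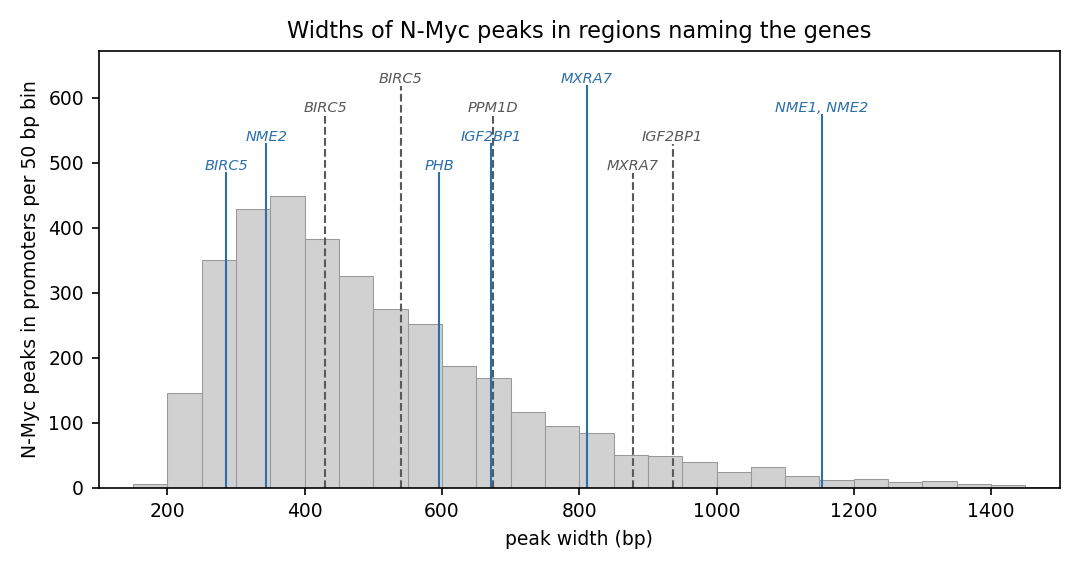
Widths of the 3550 N-Myc peaks in listed N-Myc promoters (grey bars, number per 50 bp bin against width in bp) with the 11 N-Myc peaks in regions naming the genes drawn as lines (solid blue in promoters, dashed grey in enhancers only). The lines run from *BIRC5* at 286 bp to *NME1* and *NME2* at 1153 bp, and the median promoter peak was 452 bp.

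The 4 genes of the *JMJD6* locus differed in listing although their start sites lie within 26.3 kb. *MXRA7* encodes a membrane protein associated with matrix remodelling. The gene (ENSG00000182534) runs from 74668633 to 74707086 on the minus strand, and it had 1 promoter and 1 typical enhancer listed for N-Myc. The promoter peak, 811 bp wide, was wider than 90.3% of promoter peaks, was centred 33.0 bp into the gene from the listed start site at 74705679, and held 1 CACGCG and 1 CATGTG but no canonical E-box. The nearest canonical site lay 252 bp outside its edge. The intronic peak from 74693517 to 74694394 was 878 bp wide and held none of the 3 motifs. CpG dinucleotides were scarce in both peaks, with an observed over expected ratio of 0.37 in the promoter peak and 0.24 in the intronic one, where the lower quartile of promoter peaks was 0.60. One typical enhancer of 14820 bp, 74693095 to 74707914, joined the peaks and named *MXRA7* at +6533 bp and *ST6GALNAC1* at −60584 bp, but not *JMJD6*. No listed super-enhancer named *MXRA7* or *JMJD6*, although the authors described super-enhancers at this locus in this line from histone marks. The lists hold only super-enhancers that overlap a common peak of N-Myc or JMJD6, so they are not a full set to compare with.

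*JMJD6* (ENSG00000070495, 74708914 to 74722881, minus strand) lay 16.8 kb from its nearest N-Myc peak, which is the promoter peak of *MXRA7*. *METTL23* (ENSG00000181038, 74722912 to 74730018, plus strand), a methyltransferase gene that starts 31 bp away in the opposite direction, shared that peak as its nearest, at 16.9 kb. The annotated start site of *JMJD6* closest to it was 10668 bp away. *SRSF2* (ENSG00000161547, 74730197 to 74733415, minus strand), which encodes a serine and arginine rich splicing factor, lay 27.4 kb from the nearest N-Myc peak. These distances were below the median of 54.6 kb over all autosomal protein-coding genes, of which 30.3% had a peak closer than *JMJD6* or *METTL23* and 37.2% closer than *SRSF2*. The nearest JMJD6 peak was 871.0 kb from *JMJD6* and 881.5 kb from *SRSF2*, where the median over all genes was 2375.8 kb.

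Canonical E-boxes were nonetheless in the reference sequence at the 3 genes without any region. *JMJD6* and *METTL23* share one, which lies 152.5 bp into *METTL23* and at −183.5 bp from the *JMJD6* start. *SRSF2* has one 619.5 bp into the gene. They are shown because they lie at promoters where neither protein was listed. By chromatin immunoprecipitation with PCR in the same cell line, the authors reported N-Myc enrichment at the E-box region of the *JMJD6* promoter. Absence from these lists is therefore not absence of binding. The authors also place a CACGCG upstream of the *JMJD6* start, so that enrichment cannot be assigned to the CACGTG shown. *JMJD6*, *METTL23* and *SRSF2* each had 2 CACGCG within 1 kb of the 5′ end.
JMJD6 and METTL23 (chr17:74723050-74723079, minus strand): gaagccgcgggcCACGTGgccgtagcacct
SRSF2 (chr17:74732781-74732810, minus strand): tccgcggcgaagCACGTGgtgcgggcccgg
Every 75-mer within 1 kb of the 5′ ends of *JMJD6*, *METTL23*, *SRSF2* and *PPM1D* occurs once in the reference genome (100%). The same held for all of the 11 peaks other than the *BIRC5* promoter peak, with 95.8%.

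**Figure D4:**
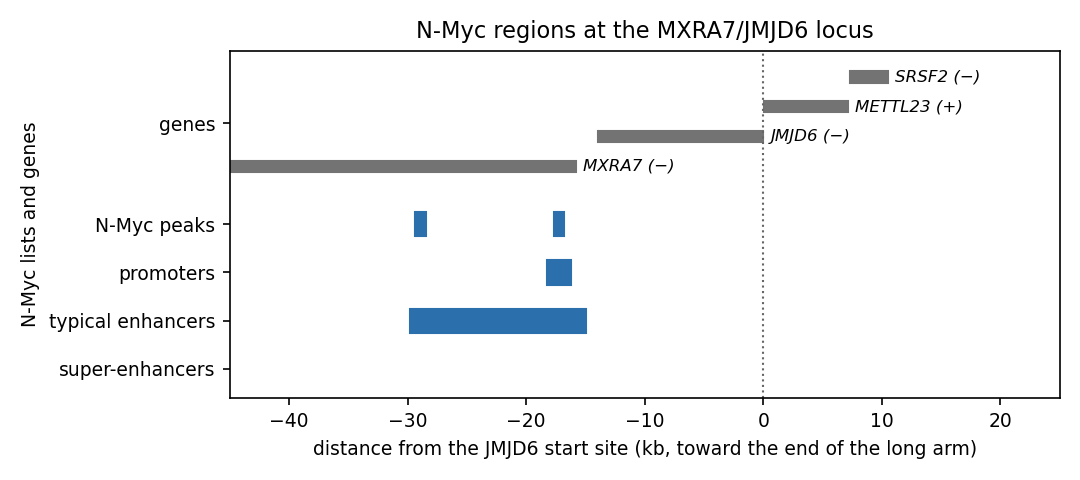
N-Myc peaks, promoters, typical enhancers and super-enhancers and the 4 genes against distance from the *JMJD6* start site (kb, positive toward the end of the long arm). The peaks, the promoter and the typical enhancer all lie over *MXRA7*, the nearest peak is 16.8 kb from the *JMJD6* start, and no region lies over *JMJD6*, *METTL23* or *SRSF2*.

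Within 250 kb of the *JMJD6* start lay 9 further protein-coding genes, of which 1, *PRCD*, had an N-Myc promoter (18.3% of all genes) and 1, *ST6GALNAC1*, was named by an N-Myc typical enhancer (32.7% of all genes). An N-Myc super-enhancer between −187.5 and −167.5 kb from the *JMJD6* start named *PRCD* and *ST6GALNAC2*. *MFSD11*, *MGAT5B*, *RHBDF2*, *CYGB* and a pair of genes known by identifier alone were named in no list, and JMJD6 was listed at 0 of the 9 genes, a count that says little where 0.655% of all genes had a JMJD6 promoter.

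Across the peaks of the 10 genes, CACGTG was found in 5 of 11 (45.5%, 95% CI 16.7 to 76.6%), and in 3 of the 6 that lay in promoters (50%, 95% CI 11.8 to 88.2%). The share over all N-Myc promoter peaks was 36.9% (1309 of 3550). With CACGCG added, 7 of 11 peaks held a motif, among them 5 of the 6 in promoters (83.3%, 95% CI 35.9 to 99.6%), against 56.9% of all N-Myc promoter peaks. With CATGTG added as well the counts were again 7 of 11 and 5 of 6, against 67.3%, and both shares lie inside the interval. The other 5 of the 11 peaks lay in enhancers only and have no like background here. Within 1 kb of the annotated 5′ end, 7 of the 10 genes had CACGTG (70%, 95% CI 34.8 to 93.3%) against 28.7% of all genes. *JMJD6* and *METTL23* share 1 site, so the hits are not independent and the interval, which counts both genes, is too narrow. That share was 44.5% among genes with a promoter listed for N-Myc and 25.2% among genes without. Of the 4 genes here without a listed promoter, *JMJD6*, *METTL23* and *SRSF2* had the motif and *PPM1D* did not. Motifs were searched on both strands, and a match is a description of the reference sequence.

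The chromosome segment that holds the genes was itself rich in N-Myc promoters. Between the outermost of the 10 genes, 47074747 to 76221717 (29.1 Mb), 97 of 298 protein-coding genes had a promoter listed for N-Myc, or 32.6% (95% CI 27.3 to 38.2%), a share that lies inside the interval of the 10 genes. It was 25.4% over the whole long arm (214 of 842), 16.1% (95% CI 12.4 to 20.4%) on the short arm (56 of 347) and 18.1% on the other autosomes. N-Myc peaks numbered 9.76 per Mb in the segment, 10.9 on 17q, 6.53 on 17p and 3.55 on the other autosomes. Protein-coding genes numbered 10.2, 15.1, 15.7 and 6.92 per Mb in the same order, so that 17p had the most genes per Mb of the 4 and 17q the most N-Myc peaks. Per gene the segment had 0.953 N-Myc peaks, 17p 0.415 and the other autosomes 0.514. The line carries a gain of 17q by the authors' description, and any part of copy number in these differences was not tested.

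The segment had 0.412 JMJD6 peaks per Mb (12 peaks), 17p 0.408 (9 peaks) and the other autosomes 0.191. Per gene these were 0.0403, 0.0259 and 0.0276 peaks. JMJD6 typical enhancers named 4.03% of the genes of the segment (12 of 298, 95% CI 2.1 to 6.93%) and 0.576% of those of 17p (95% CI 0.0699 to 2.07%). A region can name neighbouring genes together, as with *PHB* and *NGFR*, so the genes are not independent and these intervals are too narrow. JMJD6 super-enhancers, 9 regions in all, named 0 of 298 genes of the segment (upper 95% limit 1.23%). On 17p they named 4 of 347 (1.15%, 95% CI 0.315 to 2.93%). Over all autosomal protein-coding genes the share was 0.078%, so the 0 in the segment shows no direction. A JMJD6 peak lay within 1 kb of an annotated start site at 4 of 298 and 2 of 347 genes. Promoters listed for JMJD6 numbered 3 of 298 in the segment and 0 of 347 on 17p, which allows up to 1.06%. The 3 genes were *PHB*, *UNK*, which encodes an RNA-binding zinc finger protein, and *WBP2*, which encodes a WW domain binding protein. All 3 were also listed for N-Myc. Over all autosomal protein-coding genes, 126 had a promoter listed for JMJD6 and 60 had one listed for both proteins. On 17q these were 9 and 7 genes.

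**Figure D5:**
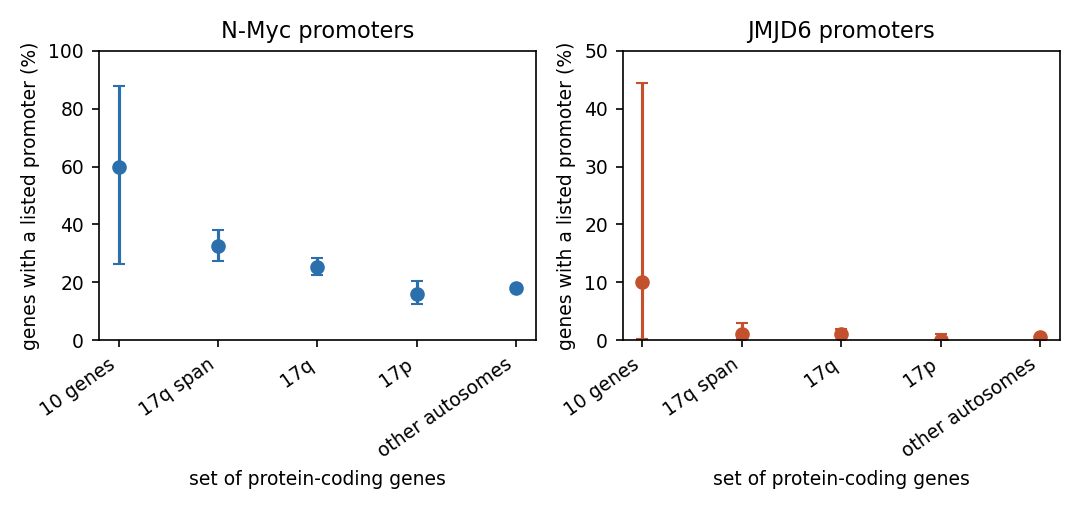
Share of protein-coding genes with a listed promoter (vertical axis, %, with exact 95% intervals) for N-Myc (left) and JMJD6 (right) among the 10 genes, the segment between them, 17q, 17p and the other autosomes. N-Myc shares are 60, 32.6, 25.4, 16.1 and 18.1%, and for JMJD6 the interval of the 10 genes is wide because a single gene, *PHB*, was listed.

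Another 25 genes of 17q are discussed as candidates in tumours with 17q gain. Several of them, among them *STAT3*, *CBX2*, *EIF4A3* and *TIMP2*, lie outside the segment, so shares of the whole of 17q are given too. Of the 25, 8 had a promoter listed for N-Myc, against 18.3% of all genes, 25.4% of 17q and 32.6% of the segment. These were *TRIM37*, *RPS6KB1*, *STAT3*, *TK1*, *CBX2*, *EIF4A3*, *SEPT9* and *NOL11*. N-Myc typical enhancers named 17 of the 25, with 8 such regions for *SEPT9* and 5 for *MSI2*. The shares were 32.7% of all genes, 40.6% of 17q and 48.3% of the segment. N-Myc super-enhancers named 2, *SOX9* and *TIMP2*, against 1.36% of all genes, 3.09% of 17q and 4.03% of the segment. JMJD6 was listed at the promoter of 0 of 25 (0.655% of all genes). Its typical enhancers named 3, *NGFR*, *PRKCA* and *SEPT9*, against 0.942% of all genes, 2.61% of 17q and 4.03% of the segment. The *NGFR* entry is the region at the *PHB* promoter described above.

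Paralogues and partners of the 10 genes, on any chromosome, were listed for N-Myc at 9 of 20 promoters, against 18.3% of all genes, and for JMJD6 at 0, where 0.655% of all genes leaves little to read from 20. *PHB2*, the partner of prohibitin, was listed for N-Myc but not for JMJD6. *NME3*, *NME6* and *NME7* were listed among the kinase relatives and *NME4* was not. *IGF2BP3* had a listed promoter, and *IGF2BP2* had typical enhancers only. The splicing factor genes *SRSF1*, *SRSF3* and *SRSF7* all had N-Myc promoters and typical enhancers, unlike *SRSF2*. *PPM1A* was listed, in contrast to *PPM1B*, *PPM1G* and *PPM1D*. Of the relatives of *BIRC5*, *BIRC2*, *BIRC3* and *XIAP* had no region and *BIRC6* had a typical enhancer. *XIAP* lies on chromosome X, where no protein-coding gene of the annotation had a listed promoter, so its missing promoter says nothing. *JMJD4*, *JMJD7* and *JMJD8* had no region in any list, as was the case for *JMJD6*. Of all autosomal protein-coding genes, 38.5% were named by at least 1 region, so most had none.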

How the data were processed

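Per the methods and labels, the authors mapped reads to hg19 (BWA, SAMtools, bedtools) and took peaks of each replicate over input from MACS2 (2.1.1.20160309, q-value maximum 0.05). The 12 deposited lists hold positions in bp of peaks common to 3 replicates, of promoters (1 kb on each side of a RefSeq start site), and of ROSE enhancers from H3K27ac profiled once, stitched within 12.5 kb and given nearest genes by GREAT. The lists have no column per sample.

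Genes were matched by symbol, or by older RefSeq symbols, to GENCODE 44 lifted to GRCh37, which placed 3527 of 4150 symbols of the N-Myc promoter list. Of 329 N-Myc promoters of chromosome 17 with a protein-coding symbol, 285 (86.6%) had their centre no more than 100 bp from a start site annotated for the same gene. Overlap was at least 1 bp. The 5′ end is the outermost end of the annotated gene. Intervals are Clopper-Pearson. No test across samples was possible. Counting of 75-mers, overlaps and motifs was tested on simulated data. The 10 genes and the gene lists were chosen with earlier results of these data known, and all were named whatever their values. Python 3.11.15, numpy 2.4.6, SciPy 1.17.1, pysam 0.24.0 and matplotlib 3.10.9 were used.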

Additional observations from a re-analysis of the deposited data

How the results depend on the processing

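The number of the 10 genes with an N-Myc promoter was 6 by listed region and by a peak within 1 kb or 5 kb of an annotated start site, and 4 when only peaks of at least the median width counted, where the share of all genes was 18.3%, 21.5%, 26.5% and 9.7% in that order. For JMJD6 it was 1 in each case, against 0.655%, 0.812%, 1.07% and 0.432%. On all chromosomes the share of genes with a listed N-Myc promoter was 17.5% rather than 18.3%. The listed genes numbered 3525 either way, so only genes without a listed promoter were added. Genes with an N-Myc peak within 1 kb of an annotated start site did increase, from 4126 to 4195. Counted by such a peak on autosomes, the N-Myc share moved from 18.3% to 21.5% and the JMJD6 share from 0.655% to 0.812%. By the same count the share was 38.9% in the segment between the genes and 21.9% on 17p, while the whole long arm gave 25.4%. The number of peaks of the 10 genes with CACGTG fell from 5 to 3 when the search was limited to 100 bp either way of a peak's centre, a shorter sequence by construction. The interval shared by N-Myc and JMJD6 at *PHB* has identical ends in the lists of both proteins. It therefore stays shared at an overlap of 50% of each peak by construction. Replicates were not left out one at a time, and no paired analysis was possible because the lists have no column per replicate and no result comes from a test. Depth limits what an absent region means: the lists hold only peaks found in all 3 replicates.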
